A study of Mus musculus with 4 samples.

Results

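The pregnane X receptor (PXR), encoded by *Nr1i2*, and 7 genes of the Cyp3a family of cytochrome P450 enzymes were examined in mouse liver. They are *Cyp3a11*, *Cyp3a13*, *Cyp3a16*, *Cyp3a25*, *Cyp3a41a*, *Cyp3a44* and *Cyp3a59*. The 8 genes were taken by their symbols from the 35739 genes of the transcript table, which holds 11 genes with a Cyp3a symbol in all. RNA-seq was performed on 2 livers of wild-type (WT) mice, replicates 2 and 3, and 2 livers of *Usp21* knockout (KO) mice, replicates 1 and 3. *Usp21* encodes a deubiquitylase, an enzyme that removes ubiquitin from proteins. The KO allele lacks exons 3 and 4, which were removed with Cre and loxP, and the lesion is present in every tissue and from the start of life, so that effects arising in the liver and outside it cannot be told apart. WT and KO mice were littermates of a mixed strain background, 10 to 11 weeks old, kept on a normal diet. No inducer of PXR is named for either group, and the sex of the mice and the hour of collection are not given in the sources used here. On the scale of transcripts described further on, *Usp21* was measured at 4.07 and 6.29 TPM in WT and at 1.64 and 2.93 TPM in KO, with a log2 difference of -0.92 (limma adjusted p = 0.464), so the targeted transcript was lower but present in the libraries labelled KO. A value per gene does not show which exons its reads came from.

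PXR is a nuclear receptor of liver and intestine that is activated by bile acids, steroids and many drugs. It binds DNA as a heterodimer with the retinoid X receptor and raises transcription of genes for drug oxidation, conjugation and export. Cyp3a genes are its best known targets, and their products oxidize steroids, bile acids and a wide range of drugs at a heme group, with electrons passed on by P450 oxidoreductase. Mouse Cyp3a genes also differ by age and sex, and *Cyp3a16* is known for the fetal liver and *Cyp3a41a* and *Cyp3a44* for the female liver.

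*Cyp3a11* made up 89.3% to 91.4% of the Cyp3a transcripts in every liver, *Cyp3a25*, *Cyp3a13* and *Cyp3a59* made up nearly all of the rest, and *Cyp3a16*, *Cyp3a41a* and *Cyp3a44* lay near 0. No gene of the 8 passed the test between genotypes. *Nr1i2* averaged 17.9 ± 2.01 TPM (transcript abundance corrected for transcript length and scaled to a fixed total per library) in WT and 17.6 ± 1.76 in KO (SD, n = 2 each), and *Cyp3a11* averaged 2725 ± 331 and 3281 ± 377 TPM.

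The family members are close copies of one another, which bears on how far their transcripts can be told apart. In the mm10 build (GRCm38, GENCODE annotation), 6 of the 7 Cyp3a genes lie in one cluster on chromosome 5. They are *Cyp3a16* (145436309 to 145469723), *Cyp3a41a* (145694049 to 145720136), *Cyp3a44* (145773983 to 145805874), *Cyp3a11* (145854426 to 145879964), *Cyp3a25* (145977194 to 146009618) and *Cyp3a59* (146079257 to 146113287). *Cyp3a59* lies on the plus strand and the other 5 on the minus strand. *Cyp3a13* lies apart, at 137892932 to 137921619 on the minus strand of the same chromosome, with its start at -7958.3 kb from that of *Cyp3a11*. Each of the 7 has 13 exons in the transcript used and 503 or 504 codons, whereas *Nr1i2*, at 38248323 to 38294824 on the minus strand of chromosome 16, has 9 exons and 431 codons.

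The codons around the cysteine that holds the heme iron show how alike the members are within the part of the enzyme that all P450s share. The 30 bases printed are exonic coding sequence from GENCODE transcripts, read 5′ to 3′, with the cysteine codon (codon 443 in *Cyp3a11*) in capitals.
Cyp3a11: tttgggaatggacccaggaacTGCcttggc
Cyp3a16: tttgggaatggacccaggaacTGCattggc
Cyp3a41a: tttggaattggacccaggaacTGCattggc
Cyp3a44: tttggaattggacccaggaacTGCattggc
Cyp3a25: tttggaaatggacccaggaacTGCataggc
Cyp3a59: tttggaaatggacccaggaacTGCctagac
Cyp3a13: tttgggagtggaccaaggaacTGCattggc
Counted from 1 at the 5′ end of the stretch, with the *Cyp3a11* base first, *Cyp3a16* differed from *Cyp3a11* by C25A alone. *Cyp3a41a* and *Cyp3a44* were identical to each other here and carried G6A, A8T and C25A. *Cyp3a25* carried G6A, C25A and T27A, *Cyp3a13* carried A8G, C15A and C25A, and *Cyp3a59* carried G6A, T27A and G29A. The last of these changes the glycine that closes the signature in the other 6 members into aspartate (G444D in *Cyp3a59* numbering).

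Over the whole coding sequence the cluster fell into sets of close copies. *Cyp3a11* was identical to *Cyp3a41a* at 95.17% of aligned positions, to *Cyp3a44* at 94.91% and to *Cyp3a16* at 92.79%. *Cyp3a25* and *Cyp3a59* were identical to each other at 97.48%, and to *Cyp3a11* at 75.93% and 75.53%. *Cyp3a13* stood apart from both sets, at 76.39% to *Cyp3a11* and 76.47% to *Cyp3a25*. The close copies of the second set were listed at levels about 14-fold apart, as given further on. Reads that match both leave that ratio uncertain.

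**Figure D1:**
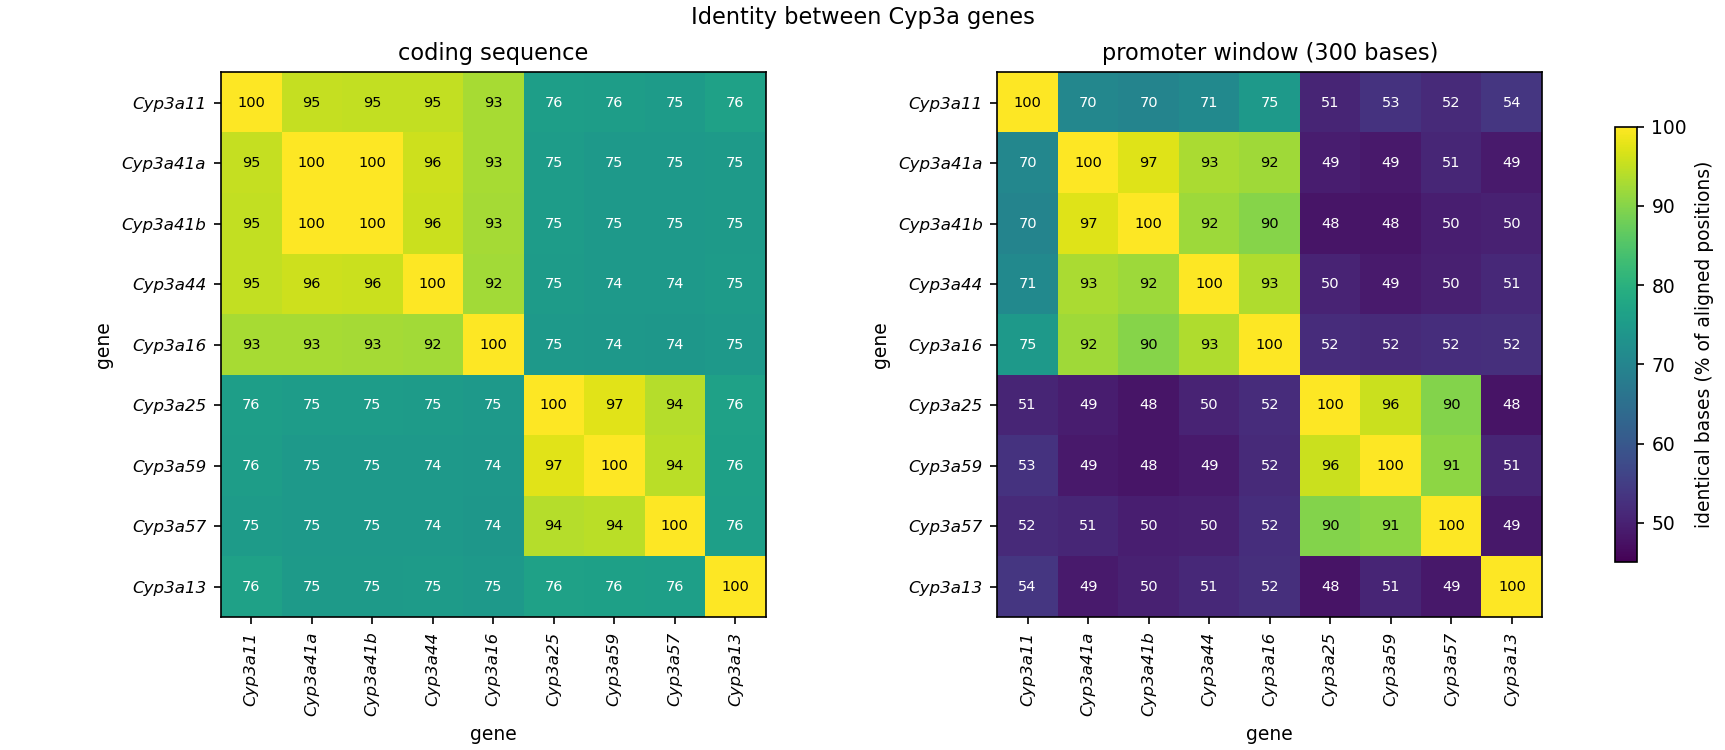
Identity between pairs of Cyp3a genes, as the percent of aligned positions with the same base, in the coding sequence (left) and in a promoter window of 300 bases around the start (right), with rows and columns for 9 genes. The coding sequences form a set around *Cyp3a11* and a set around *Cyp3a25*, and in the promoter window *Cyp3a11* is 70.44% to 74.84% identical to *Cyp3a41a*, *Cyp3a44* and *Cyp3a16*, which are over 92% identical to each other.

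Because of these copies, reads from one member can match another. Of the stretches of 31 bases in the annotated transcripts of *Cyp3a41a*, 99.85% also occurred in a transcript of another gene, mostly *Cyp3a41b* (96.06%). The share was 49.9% for *Cyp3a59*, 48.4% for *Cyp3a44*, 45.93% for *Cyp3a25* and 27.29% for *Cyp3a16*. It was 15.71% for *Cyp3a11*, 0.24% for *Cyp3a13* and 0.0% for *Nr1i2*. The division of reads between *Cyp3a25* and *Cyp3a59*, and among *Cyp3a41a*, *Cyp3a41b*, *Cyp3a44*, *Cyp3a16* and *Cyp3a11*, is therefore uncertain. *Nr1i2* and *Cyp3a13* hardly share sequence with any other gene. For *Cyp3a11*, 0.02% of stretches were shared with a gene that reached 1 TPM in these livers. That cut uses the same TPM values, so a copy whose reads were given to *Cyp3a11* would not count. The share was 16.24% for *Cyp3a16*, 19.75% for *Cyp3a41a* and 20.55% for *Cyp3a44*, mostly with *Cyp3a11*.

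*Nr1i2* was measured at 19.3 and 16.4 TPM in WT replicates 2 and 3, and at 18.8 and 16.3 TPM in KO replicates 1 and 3. Each genotype held a library near 19 and a library near 16, and the groups overlapped. The difference on the log2(TPM + 1) scale, KO minus WT, was -0.02 (SE 0.20, 95% interval -0.51 to 0.47, adjusted p = 0.972, limma with Benjamini-Hochberg adjustment over 9581 genes). Its sign depended on single libraries, since leaving out WT replicate 2 gave 0.086 and leaving out KO replicate 3 gave 0.074.

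*Cyp3a11*, the main Cyp3a enzyme of adult mouse liver, was measured at 2959 and 2491 TPM in WT and at 3014 and 3547 TPM in KO. Both KO livers were above both WT livers, with KO replicate 1 only slightly above WT replicate 2. The log2 difference was 0.27 (SE 0.22, 95% interval -0.28 to 0.82, limma adjusted p = 0.658), a ratio of means of 1.20. By its mean over the 4 livers *Cyp3a11* ranked 51 among all genes of the table, and its rank in a single library ran from 44 to 55.

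*Cyp3a25*, a further Cyp3a enzyme of adult liver, was measured at 224.6 and 208.1 TPM in WT and at 238.5 and 259.0 TPM in KO. Its close copy *Cyp3a59* was measured at 15.2 and 14.8 TPM in WT and at 17.4 and 17.5 TPM in KO. For both genes the KO livers lay above the WT livers. The log2 differences were 0.20 for *Cyp3a25* (SE 0.16, 95% interval -0.20 to 0.60, limma adjusted p = 0.654) and 0.21 for *Cyp3a59* (SE 0.18, 95% interval -0.24 to 0.66, limma adjusted p = 0.668). The ratio of *Cyp3a25* to *Cyp3a59* was 14.8 and 14.1 in WT and 13.7 and 14.8 in KO, so it overlapped between genotypes. Summed with *Cyp3a57*, the third copy of that set, which was listed at 0 in all 4 libraries, they reached 231.3 ± 12.0 TPM in WT and 266.2 ± 14.6 TPM in KO (SD, n = 2), a sum that does not depend on how shared reads were divided among the 3.

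*Cyp3a13*, which is expressed in liver and intestine, was measured at 43.7 and 74.2 TPM in WT and at 51.2 and 56.1 TPM in KO. The KO values fell between the WT values. The log2 difference was -0.09 (SE 0.28, 95% interval -0.77 to 0.60, limma adjusted p = 0.918), and it became 0.29 without WT replicate 3, the library with the highest value.

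**Figure D2:**
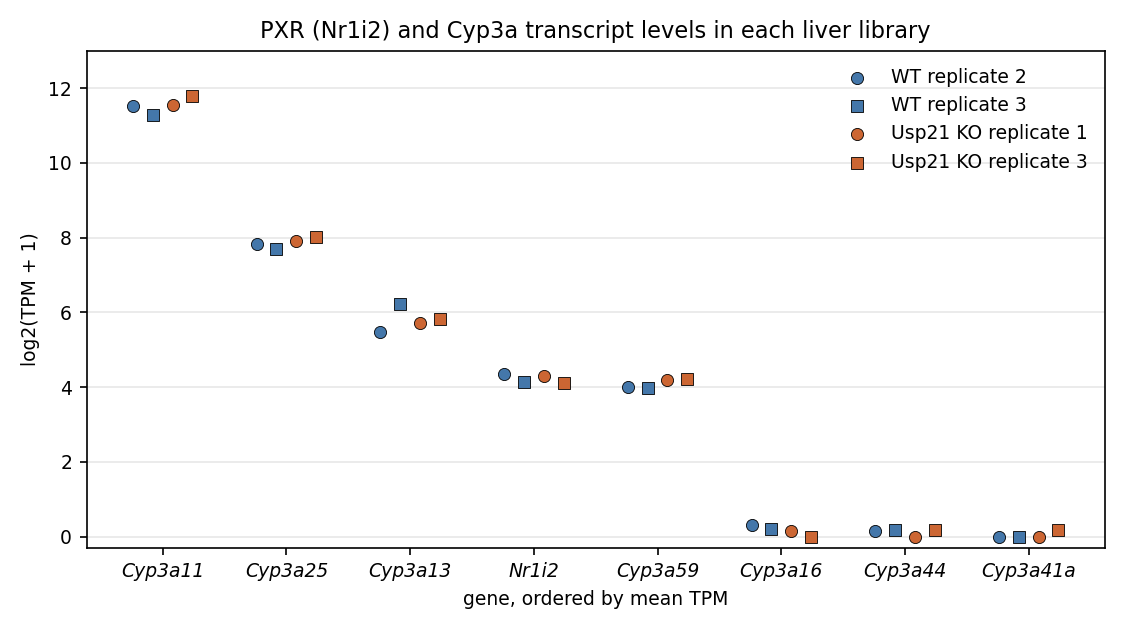
Level of each of the 8 genes in each library, as log2(TPM + 1), with genes ordered by their mean TPM, blue for WT and orange for *Usp21* KO. *Cyp3a11* lies above 11 in every library, *Nr1i2* and *Cyp3a59* lie close to 4 and overlap with each other, and *Cyp3a16*, *Cyp3a44* and *Cyp3a41a* lie near 0.

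The other 3 members stayed under the minimum mean of 1 TPM for the test. *Cyp3a16* was listed at 0.233 and 0.144 TPM in WT and at 0.119 and 0 TPM in KO. *Cyp3a44* was listed at 0.105 and 0.131 TPM in WT and at 0 and 0.137 TPM in KO, and *Cyp3a41a* at 0 in 3 libraries and at 0.134 TPM in KO replicate 3. These genes, known for the fetal and the female liver, were thus far below *Cyp3a11*, with which their coding sequences are nearly identical. Fitted without the minimum, over 15061 genes, their log2 differences were -0.17 for *Cyp3a16*, -0.07 for *Cyp3a44* and 0.09 for *Cyp3a41a* (limma adjusted p = 0.695, 0.855 and 0.791). The other Cyp3a genes of the table were as low, with *Cyp3a41b* at 0.205 TPM in WT replicate 2 and at 0 elsewhere, and *Cyp3a57*, *Cyp3a61-ps1* and *Cyp3a63-ps* at 0 in all 4 libraries.

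Markers of sex were read beside these low values. The 4 Y-linked genes examined were above 0 in every library, for example *Ddx3y* at 7.14 and 11.9 TPM in WT and at 20.5 and 11.8 TPM in KO. Of 11 female-predominant liver genes in the table, 3 reached a mean of 1 TPM, compared with 13 of 13 male-predominant genes. The fetal liver genes *Afp*, *H19*, *Igf2*, *Gpc3* and *Dlk1* were looked for together with *Cyp3a16*. Of these 6, *H19* had no row, and of the 5 present in the table, 0 reached a mean of 1 TPM.

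In order of level, *Cyp3a11* stood above *Cyp3a25*, then *Cyp3a13*, and the ranges of these 3 over the 4 libraries did not overlap with each other or with the next. *Nr1i2* (16.3 to 19.3 TPM) and *Cyp3a59* (14.8 to 17.5 TPM) came next and could not be ranked within their spread. The 3 low genes overlapped with one another as well. Along the chromosome, the 3 expressed genes of the cluster were neighbours, with gene starts at 0, 129.7 and 199.3 kb from that of *Cyp3a11*, whereas *Cyp3a44*, *Cyp3a41a* and *Cyp3a16* followed on the other side at -74.1, -159.8 and -410.2 kb. Of the 12 other genes in the table between *Cyp3a16* and *Cyp3a59*, 11 were at 0 in all libraries and the remaining one was *Cyp3a41b*.

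**Figure D3:**
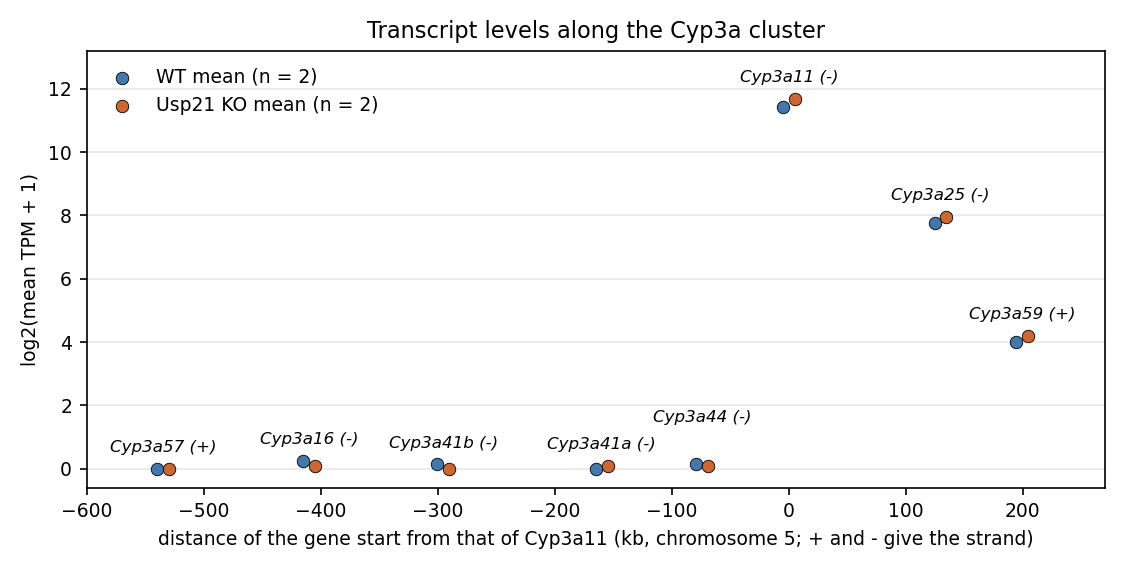
Mean level of each Cyp3a gene of the cluster in WT (blue) and *Usp21* KO (orange) livers, as log2(mean TPM + 1), against the distance of its start from that of *Cyp3a11* in kb, with the strand after each name and the paired points drawn side by side so that both can be seen. Expression is seen at *Cyp3a11*, *Cyp3a25* and *Cyp3a59*, at 0, 129.7 and 199.3 kb, and the 5 genes on the other side of *Cyp3a11* lie near 0 in both genotypes.

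The sum over the 7 Cyp3a members was 3243 and 2788 TPM in the WT livers, against 3321 and 3880 TPM in the KO livers. *Cyp3a11* made up 91.2% and 89.3% of it in WT and 90.8% and 91.4% in KO, and *Cyp3a25* made up 6.93% and 7.46% in WT and 7.18% and 6.68% in KO. The share of *Cyp3a11* in the pool thus overlapped between genotypes. On the deposited scale the size of the pool was larger in both KO livers, with means of 3015 ± 321 and 3601 ± 395 TPM (SD, n = 2). That separation was lost under both other scalings, chosen for the sum after the data had been seen: the KO values were 3051 and 3861 against 3395 and 2932 in WT with an equal upper quartile, and 2915 and 3825 against 3453 and 2961 by the median of ratios. As a share of the TPM of all 134 cytochrome P450 genes of the table, the Cyp3a members took 18.2% and 21.1% in WT and 25.4% and 26.4% in KO. That share moves with the rest of the P450 genes, whose total with Cyp3a was 17773 and 13239 TPM in the WT livers, against 13053 and 14725 TPM in the KO livers. In bulk liver, fewer cells of a type and less RNA per cell cannot be told apart.

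Counted over the 8 members, 5 could be tested and 0 passed an adjusted p of 0.05 by limma, where 8 of 9581 genes did (0.0835%). At an unadjusted p of 0.05, 0 of the 5 passed, beside 10.5% of all genes tested. None of the 5 differed by 2-fold or more, beside 3.68% of all genes tested, of which 248 were higher and 105 lower in KO (152 and 162 after scaling by the median of ratios). Each of the 5 intervals of 95% lay within a 2-fold difference in either direction on the log2(TPM + 1) scale. The KO livers lay above the WT livers in 3 of the 5 (*Cyp3a11*, *Cyp3a25* and *Cyp3a59*) and below them in 0, beside 34.4% and 10.9% of all genes tested.

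These 3 small differences have to be read against the shift of the whole table. The median log2 difference of all genes tested was 0.15, beside 0.20 for the 5 members, and it became 0.04 when libraries were scaled to an equal upper quartile and -0.01 when they were scaled by the median of ratios. Relative to that median, *Cyp3a11* stood at 0.12, 0.10 and 0.09 under the 3 scalings, and 62.9% of genes had a lower difference as deposited. *Nr1i2* relative to the median was at -0.17, -0.19 and -0.19. After scaling by the median of ratios, 1 of the 5 members had groups that did not overlap, and it was *Nr1i2*, with a log2 difference of -0.21 before centring. The separation of *Cyp3a11*, *Cyp3a25* and *Cyp3a59* between genotypes was thus lost under that scaling, and that of *Cyp3a11* and *Cyp3a25* also with an equal upper quartile.

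**Figure D4:**
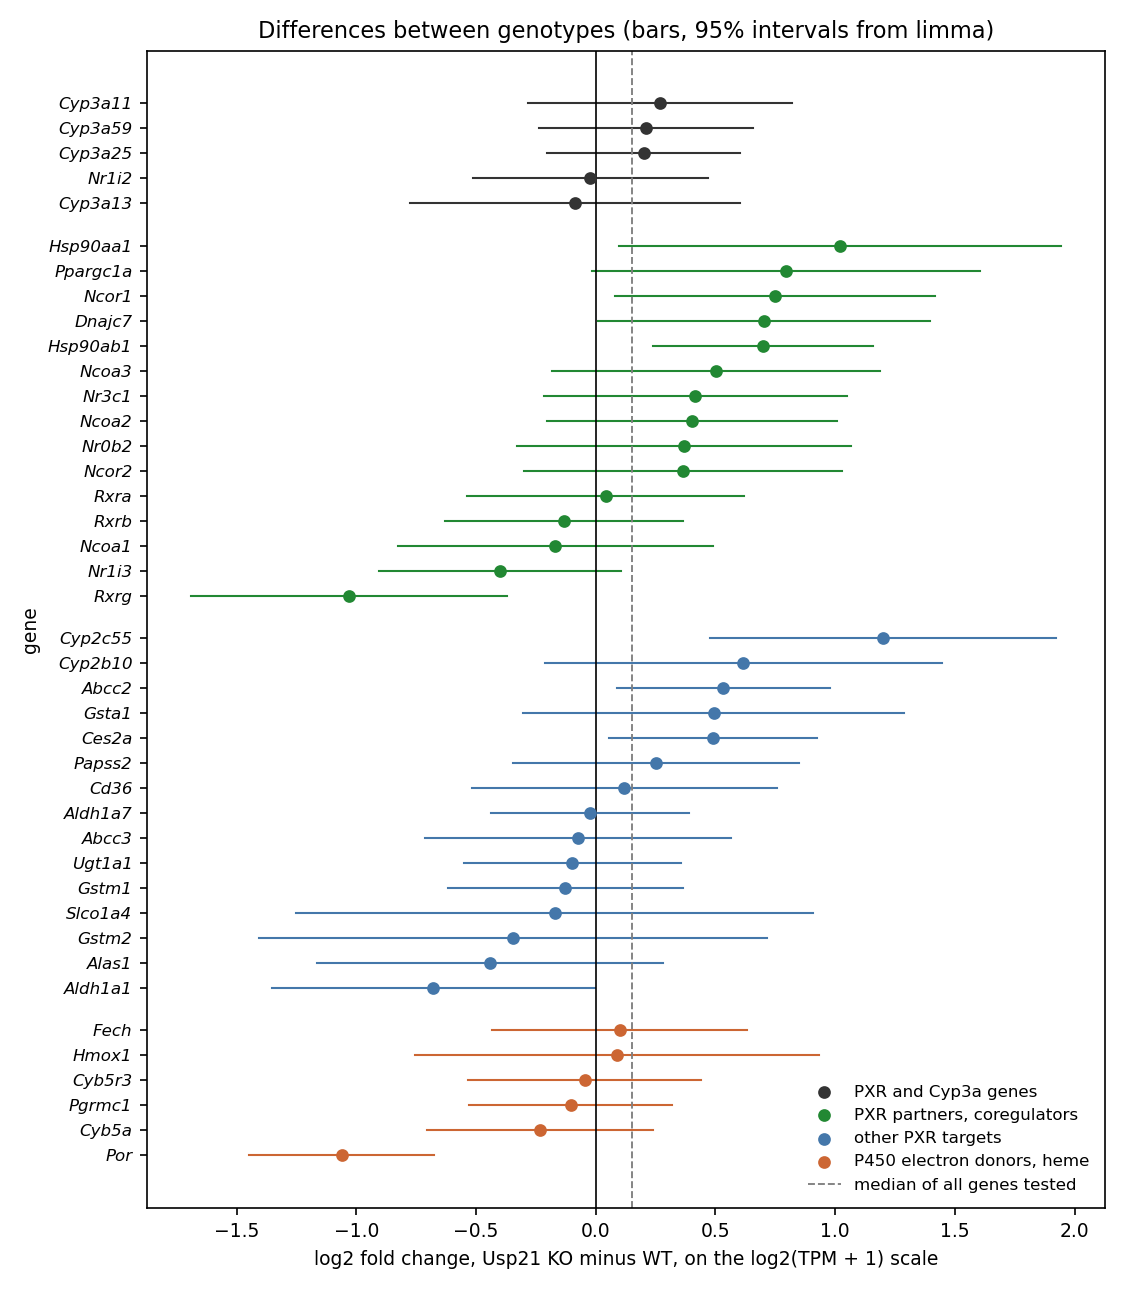
Log2 fold change between genotypes, *Usp21* KO minus WT, with its 95% interval from limma, for the 5 members that could be tested (black), PXR partners and coregulators (green), other PXR targets (blue) and electron donors and heme enzymes (orange), with the median of all genes as a dashed line. All 5 members have intervals that cross 0 and lie inside a 2-fold difference, and *Por* lies at -1.06 and *Cyp2c55* at 1.20.

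The partners of PXR were described next. *Rxra*, the main heterodimer partner in hepatocytes, was measured at 74.9 and 56.3 TPM in WT and at 57.9 and 77.3 TPM in KO, with a log2 difference of 0.04 (limma adjusted p = 0.957), and -0.16 without KO replicate 3. *Rxrg*, a low member of the same receptor group, was measured at 3.53 and 3.29 TPM in WT and at 1.43 and 0.914 TPM in KO, with a log2 difference of -1.03 (limma adjusted p = 0.464). *Nr1i3*, which encodes the sister receptor CAR, was measured at 38.9 and 42.1 TPM in WT and at 34.9 and 26.5 TPM in KO, with a log2 difference of -0.40 (limma adjusted p = 0.516), and -0.21 without KO replicate 3. The *Rxrg* and *Nr1i3* levels were thus lower in both KO livers, whereas those of *Rxra* overlapped. The cytosolic chaperone that holds PXR and CAR, *Hsp90ab1*, was measured at 204.8 and 253.0 TPM in WT and at 355.3 and 385.7 TPM in KO, with a log2 difference of 0.70 (limma adjusted p = 0.464). Of the 15 partners and coregulators, 4 were higher and 1 lower at an unadjusted p of 0.05, and 0 passed the adjusted test. At that unadjusted threshold 8.45% of all genes were higher and 2.04% lower. The median log2 difference of the list was 0.40, beside 0.15 for all genes. After scaling by the median of ratios it was 0.24, beside -0.01 for all genes.

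Other targets of PXR, several of which are shared with CAR, lay on both sides of 0. Of 18 listed, 15 could be tested, 7 were above and 8 below 0, 3 were higher and 1 lower at an unadjusted p of 0.05, and 0 passed the adjusted test, with a median of -0.02. Of all genes tested, 66.7% lay above 0, 8.45% were higher and 2.04% lower at that threshold, and the median was 0.15. Leaving out WT replicate 2 or KO replicate 3 turned the median of the list to 0.15 or 0.18, beside 0.15 and 0.22 for all genes. *Cyp2c55*, a P450 gene known to respond to PXR and CAR, was measured at 2.68 and 3.25 TPM in WT and at 10.2 and 6.36 TPM in KO, with a log2 difference of 1.20 (limma adjusted p = 0.458). Both KO livers were above both WT livers for this gene. The bile canalicular exporter gene *Abcc2* had a log2 difference of 0.53 and the carboxylesterase gene *Ces2a* of 0.49 (limma adjusted p = 0.464 for each). *Aldh1a1*, which encodes a retinal dehydrogenase, had a log2 difference of -0.68 (limma adjusted p = 0.473), and *Cyp2b10*, the classical CAR target, of 0.62 (limma adjusted p = 0.524). Single libraries set the size of both, since leaving out KO replicate 1 gave -0.32 and 0.28, and leaving out KO replicate 3 gave -1.03 and 0.96.

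Cyp3a enzymes need electrons from P450 oxidoreductase, encoded by *Por*. *Por* was measured at 175.2 and 167.7 TPM in WT and at 81.8 and 81.4 TPM in KO. The KO livers had 0.476 times the *Por* transcript of the WT livers, with little spread inside each group. The log2 difference was -1.06 (SE 0.15, 95% interval -1.45 to -0.68), and it did not pass the adjusted test (limma adjusted p = 0.203). The second electron donor, cytochrome b5 (*Cyb5a*), was measured at 1447 and 1673 TPM in WT and at 1351 and 1300.5 TPM in KO, with a log2 difference of -0.23 (limma adjusted p = 0.658), and -0.13 without WT replicate 3. Of the 7 electron donors and heme enzymes, 0 passed the adjusted test. At an unadjusted p of 0.05, 1 (*Por*) was lower and 0 were higher, beside 2.04% and 8.45% of all genes. The median was -0.11, beside 0.15 for all genes. Below 0 lay 5 of the 7, beside 33.3% of all genes. All 7 lay below 0 with an equal upper quartile or by the median of ratios. Under those scalings 54.0% and 48.4% of all genes lay above 0.

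Of 15 transcription factors tested that act on Cyp3a or hepatocyte genes, *Dbp* alone passed the adjusted test, beside 0.0835% of all genes. At an unadjusted p of 0.05, 3 were higher and 3 lower, beside 8.45% and 2.04% of all genes. The median was 0.29, beside 0.15 for all genes. It was 0.11 by the median of ratios, beside -0.01 for all genes, and -0.23 without KO replicate 1, beside 0.08. *Dbp*, a clock-output factor that binds D-box sites, was measured at 56.8 and 41.3 TPM in WT and at 4.73 and 4.97 TPM in KO, and fell by 3.08 on the log2 scale (limma adjusted p = 0.0193). Without any one of the 4 libraries, no gene passed the adjusted test. *Hnf4a*, a hepatocyte factor that binds Cyp3a promoters, was measured at 111.6 and 105.3 TPM in WT and at 171.3 and 155.3 TPM in KO, with a log2 difference of 0.59 (limma adjusted p = 0.464). *Nfil3*, which competes for D-box sites, had a log2 difference of 1.69 (limma adjusted p = 0.436). The part of these factors in the Cyp3a levels was not tested.

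The other P450 families of the liver lay mostly below 0. Of 16 such genes, 3 were above and 13 below 0, 1 was higher and 1 lower at an unadjusted p of 0.05, 0 passed the adjusted test, and the median was -0.31. Of all genes tested, 66.7% lay above 0, 8.45% were higher and 2.04% lower at that threshold. Without WT replicate 2 the median of these P450 genes was -0.10, beside 0.15 for all genes. The lowest of these by p was *Cyp2a5*, at 494.6 and 615.8 TPM in the WT livers and 222.4 and 177.4 TPM in the KO livers (log2 difference -1.47, limma adjusted p = 0.188). Among 13 male-predominant liver genes, 5 were higher and 0 lower at an unadjusted p of 0.05 (all genes, 8.45% and 2.04%), with a median of 0.63. Among pericentral genes, which mark the zone around the central vein where Cyp3a11 is known to be most abundant, 7 of 8 lay below 0 with a median of -0.39, and 7 of 7 periportal genes lay above 0 with a median of 0.38, beside 66.7% of all genes above 0 and 33.3% below. After scaling by the median of ratios 4 of the 7 periportal genes lay above 0, beside 48.4% of all genes. Their median was then 0.19, beside -0.01 for all genes. Without KO replicate 1 the count was also 4, beside 58.9% of all genes, with a median of 0.10 beside 0.08. The 8 pericentral genes all lay below 0 by the median of ratios, where 48.4% of all genes lay above 0. Leaving out WT replicate 2 or KO replicate 3 brought their median to -0.20 or -0.23, beside 0.15 and 0.22 for all genes. None of these passed the adjusted test, and the part of zonation or of sex-linked expression in the Cyp3a levels was not tested. Of the 172 genes of the table in the span of the Cyp3a members on chromosome 5, 66 could be tested, with a median of 0.10, and 0 passed the adjusted test.

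**Figure D5:**
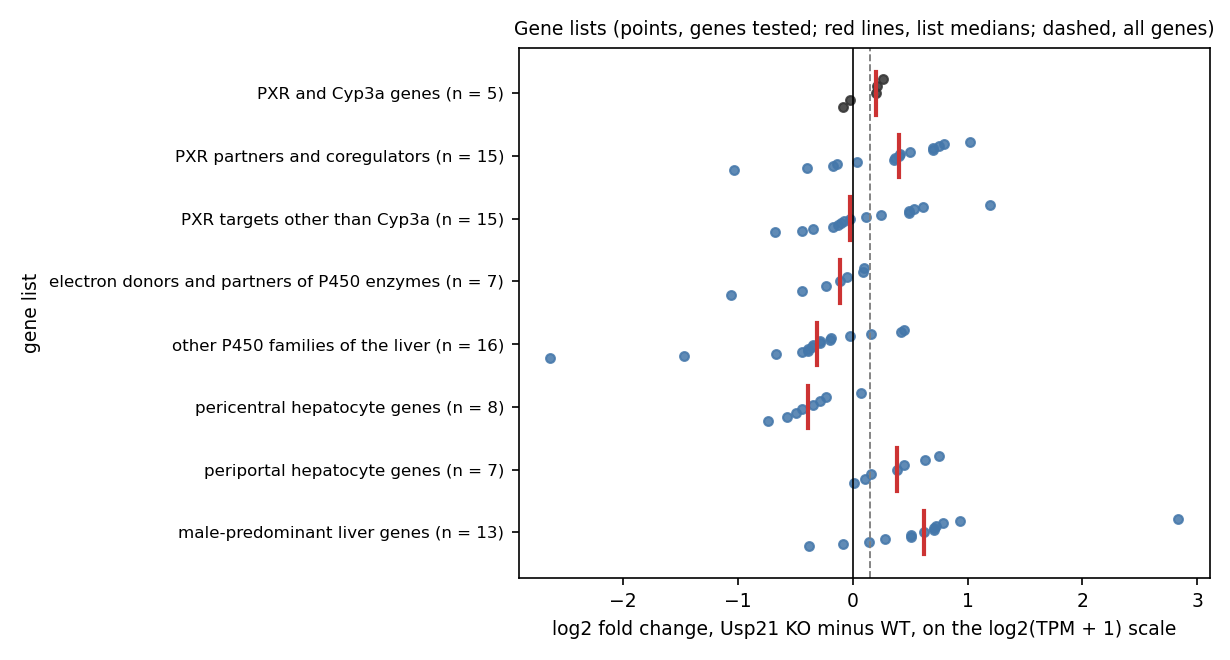
Log2 fold change, *Usp21* KO minus WT, of every gene tested in 8 gene lists, with 1 point for each gene, red lines for list medians and a dashed line for the median of all genes. The 5 PXR and Cyp3a genes lie between -0.09 and 0.27, and every other list holds more genes and spans a wider range.

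The promoters of the cluster genes were set beside their levels. The windows are RefSeq sequences of the GRCm38.p6 build and run from 250 bases before to 50 bases after the RefSeq start, and all 8 members matched. For *Cyp3a11* the window spans 145879805 to 145880104, and the GENCODE start, at 145879964, lies upstream of the RefSeq start. The printed bases stop before it, so that no exon bases are shown. The first 140 bases of the windows are printed, upstream of the start on the strand of the gene, for the genes of the cluster, to show which letters differ between *Cyp3a11* and its neighbours near 0. Capitals mark the letters AGGTCA or AGTTCA on either strand, the half-sites that PXR and the retinoid X receptor bind.
Cyp3a11, chr5:145879965-145880104, minus strand: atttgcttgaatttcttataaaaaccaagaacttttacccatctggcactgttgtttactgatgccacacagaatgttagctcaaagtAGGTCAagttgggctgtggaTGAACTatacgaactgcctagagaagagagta
Cyp3a16, chr5:145469834-145469973, minus strand: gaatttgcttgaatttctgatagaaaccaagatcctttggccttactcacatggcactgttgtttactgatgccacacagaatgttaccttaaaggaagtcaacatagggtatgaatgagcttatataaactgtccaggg
Cyp3a41a, chr5:145720247-145720386, minus strand: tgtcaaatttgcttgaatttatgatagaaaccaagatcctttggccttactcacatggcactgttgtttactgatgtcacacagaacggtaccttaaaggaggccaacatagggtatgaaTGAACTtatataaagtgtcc
Cyp3a44, chr5:145805985-145806124, minus strand: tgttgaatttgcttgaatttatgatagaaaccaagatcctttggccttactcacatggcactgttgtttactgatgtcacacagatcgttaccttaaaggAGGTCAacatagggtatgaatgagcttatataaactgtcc
Cyp3a25, chr5:146009729-146009868, minus strand: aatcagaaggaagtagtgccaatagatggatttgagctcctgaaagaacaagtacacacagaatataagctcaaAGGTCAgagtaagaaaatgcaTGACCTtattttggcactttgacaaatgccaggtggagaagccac
Cyp3a59, chr5:146079008-146079147, plus strand: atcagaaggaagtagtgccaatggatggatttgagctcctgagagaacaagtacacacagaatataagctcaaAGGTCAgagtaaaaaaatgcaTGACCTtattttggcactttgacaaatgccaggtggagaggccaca
*Cyp3a25* and *Cyp3a59* were 95.68% identical over the window. Their listed levels differed 14-fold, a ratio left uncertain by the division of shared reads between them. *Cyp3a16*, *Cyp3a41a* and *Cyp3a44* were 92.11% to 93.42% identical to each other, and 70.44% to 74.84% identical to *Cyp3a11*.

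The search covered both strands of the 300 bases, and none of the matches overlapped another. AGGTCA was present in 4 of the 7 Cyp3a windows (*Cyp3a11*, *Cyp3a25*, *Cyp3a44* and *Cyp3a59*) and in 16.26% of all 32851 promoters. AGTTCA was present in 2 (*Cyp3a11* and *Cyp3a41a*) and in 13.99% of all promoters. CAAAGTCCA, a core that HNF4A binds, was present in 3 (*Cyp3a11*, *Cyp3a16* and *Cyp3a41a*) and in 0.47% of all promoters. In *Cyp3a11* it began at -109, downstream of the printed bases and inside the gene as GENCODE places it. AGGTCA was thus in the windows of the expressed cluster genes and, of the genes near 0, in that of *Cyp3a44* only. AGTTCA and CAAAGTCCA were in *Cyp3a11* and in genes near 0, and in neither *Cyp3a25* nor *Cyp3a59*. The window of *Cyp3a13*, which was expressed outside the cluster, held none of these letters. Windows of close copies are not independent of each other, so these counts are not counts of separate promoters. The part of these motifs in the levels was not tested. TATAAA was present in 4 of the 7 windows and in 13.62% of all promoters. TTATGTAA, the D-box letters that DBP binds, was present in 0 of the 7 and in 0.94% of all promoters, and TTCNNNGAA, the STAT5 letters, in 0 and in 8.3%. Half-sites in the DR3 or the ER6 arrangement, known from Cyp3a enhancers, were in none of the 7 windows and in 0.01% of all promoters each. None of these motifs was in the *Nr1i2* window. A match is a description of letters, and a window without a match says nothing about sites elsewhere.

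By root mean square difference of centred log2(TPM + 1) values over the 4 libraries, out of 4024 genes averaging 10 TPM or more, the genes most like *Nr1i2* were *Cox6a1* (0.0076), *Tor1aip2* (0.017) and *Cyp27a1* (0.017). Those most like *Cyp3a11* were *Glo1* (0.013), *Jagn1* (0.016) and *Clint1* (0.028). With 4 libraries, these likenesses are descriptions of order and size only.

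TPM keeps no record of depth. A second table, from counted reads, held only 102898 to 148164 reads per library and listed 7 of the 8 members at 0 in every library, with *Cyp3a11* at 1 read in KO replicate 1. Of the 686 genes that reached 100 TPM in all 4 salmon columns, 428 were also at 0 throughout that table, so its zeros say nothing about the members. The hepatocyte markers summed to 58038 to 73165 TPM in WT and to 50782 to 59151 TPM in KO. Enterocyte contamination was looked for because *Cyp3a11* and *Cyp3a13* are also intestinal, and the 4 enterocyte markers summed to 22.3 to 40.8 TPM in WT and to 35.7 to 51.7 TPM in KO. *Cdx2* was at 0 in all libraries and *Vil1* at 0 in 3. *Lgals4* was above 0 in every library, at 0.877 and 1.02 TPM in WT and at 3.28 and 1.81 TPM in KO (log2 difference 0.83, limma adjusted p = 0.468), and *Fabp2*, which liver can hold as well, ran from 21.4 to 48.3 TPM. Summed cholangiocyte markers ran from 1.39 to 3.19 TPM in WT and from 3.82 to 4.56 TPM in KO, and summed stellate cell and fibroblast markers from 41.4 to 53.5 TPM in WT and from 60.0 to 77.5 TPM in KO. Their part in the values of the members was not tested.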

How the data were processed

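RNA-seq was performed by the study on 2 WT and 2 *Usp21* KO livers, assigned by their labels. The authors estimated abundance with salmon on mm10 transcripts and deposited TPM per gene. Their deposited log2 table equals log2(TPM + 1) of it. The authors also counted reads with HTSeq, scaled them by TMM and deposited CPM, a count-based signal, with its log2 table. These CPM values gave whole reads for 100% of values (tolerance 0.02 reads). A count of 0 there allows 3 reads, 20.0 to 27.7 CPM, which covers counting error only. Tool versions and strand settings are not given in the sources used here.

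Genes averaging 1 TPM or more (9581) were tested on log2(TPM + 1) with limma 3.58.1 in R 4.3.3 (trend, two-sided, Benjamini-Hochberg adjustment, threshold 0.05), and tested on simulated data first. The fold changes understate the change of low genes. edgeR 4.0.16 on recovered reads was an alternative, as were other pseudocounts, filters and scalings, and leaving out each library. With 2 against 2 libraries an exact permutation test cannot go below p = 0.333. The limma p-values rest in part on the spread between these libraries, which may be technical. The variance of each gene was also drawn toward that of genes of like level (3.62 prior degrees of freedom). For *Cyp3a59* the SE was 0.018 without this step and 0.18 with it.

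Coordinates and transcripts came from GENCODE M21. Coding sequences were compared as bases, in place of the planned proteins, after the data had been seen. The genes named were the 8 members, the other Cyp3a genes, *Usp21*, genes of fixed lists, and for *Nr1i2* and *Cyp3a11* the 3 genes with the smallest root mean square difference. The members and lists were chosen with earlier results of these data known. *Xist*, *Hao3* and *H19* were listed but were not analysed here, since no row carried those symbols.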

Additional observations from a re-analysis of the deposited data

How the results depend on the processing

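No paired analysis was possible because the labels name no litter or pair. The groups share only 1 replicate number (3), and the labels do not say what a shared number means. Of the 5 members tested, 0 passed the adjusted test under any setting, and *Cyp3a11* (0.07 to 0.39), *Cyp3a25* (0.01 to 0.26) and *Cyp3a59* (0.03 to 0.23) kept their sign on the log2 scale. With 1 library left out at a time, *Nr1i2* ran from -0.13 to 0.086 (0.074 without KO replicate 3) and *Cyp3a13* from -0.46 to 0.29. Members with groups that did not overlap numbered 3 of 5, beside 45.3% of all genes tested. They became 2 with an equal upper quartile (43.1% of all genes) and 1 under the median of ratios (43.8%). With a library left out they ran from 3 to 5, beside 70.2% to 76.9% of all genes. At an unadjusted p, 1 member (*Cyp3a59*) passed without moderation of variances, beside 806 of all 9581 genes tested. Its SE in that setting was 0.018, from 2 against 2 libraries. Over all genes, those past the adjusted test numbered 8, and 4 without the filter, 0 without moderation, 1 on CPM and 0 with any library left out, while edgeR on recovered reads gave 12. Genes at 2-fold numbered 353, and 820 with a pseudocount of 0.1, 115 with a pseudocount of 5, 203 with a minimum of 5 TPM, 3134 on CPM, 2915 by edgeR, and 463 to 695 with a library left out. Of the members, *Cyp3a11* alone entered the CPM and edgeR fits, on 1 read in all, and its value there is not given. Shared stretches of 50 bases in place of 31 were 6.73% for *Cyp3a11*, 10.71% for *Cyp3a16*, 26.84% for *Cyp3a25*, 26.45% for *Cyp3a44* and 30.02% for *Cyp3a59*, since longer stretches are shared less often. The cause of the other moves was not tested.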
